A study of Arabidopsis thaliana with 18 samples.

Results

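The probe sets described here are those whose transcript level peaked at 48 h of low temperature (LT) in Arabidopsis leaves and had come down again by 120 h. They were chosen by their measured values. For each probe set, the mean of the 6 arrays was taken at 0 h, 48 h and 120 h, and the 22746 non-control probe sets were ranked by how far the 48 h mean stood above the higher of the other 2 means. The top 150 were taken, and 1 gene was left out by rule, which gave 149 members. Of these, 77 probe sets match 1 gene each in the platform annotation, covering 76 genes, since At1g18390 has 2 probe sets. A further 3 match several genes, and 69 are not listed there and are not named here.

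The arrays compared vte2, a mutant in VTE2 that lacks tocopherols (vitamin E), with its wild type Col. Plants of both genotypes were 4 weeks old, had a 12 h day of 120 μmol photons per m2 per s, and were kept at 22°C by day and 18°C by night, or moved to 7°C for 48 h or 120 h. Each of the 6 groups (vte2 and Col at 0, 48 and 120 h) had 3 ATH1 arrays, described by the submitters as biological replicates. Each array carried total RNA from the 9th to 11th leaves of 3 plants harvested together, so a difference in cell makeup and a difference in RNA per cell cannot be told apart. RCA, the Rubisco activase of photosynthetic cells, lay at 12.53 to 13.63 on the log2 scale in all 18 arrays. Its level moved with the members' excursion in the opposite direction, by -0.64 at 48 h against 0 h (limma adjusted p = 4.14e-06) and by 0.48 at 120 h against 48 h (adjusted p = 0.000166). At 48 h it was at 12.53, 12.72 and 12.78 in vte2, against 12.99, 13.06 and 12.90 in Col, without overlap. The guard cell marker FAMA changed by -0.42 at 48 h (limma adjusted p = 0.00785) and by 0.10 from 48 h to 120 h (adjusted p = 0.599). The phloem marker SWEET11 changed by -0.17 (limma adjusted p = 0.594) and 0.04 (adjusted p = 0.946). The part of cell makeup in the results below was not tested. VTE2 itself is not among the probe sets with a given gene name and is not analysed here.

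Plants moved to the cold change transcript levels in waves. Some genes, such as the COR genes that help leaves to withstand freezing, stay high for days in the cold, while others respond and then return. Leaf cells also carry a set of genes that react quickly to wounding, microbes and oxidative signals: receptor-like kinases at the cell surface, calcium sensors that read calcium pulses, WRKY transcription factors, enzymes that remodel or defend the cell wall, and enzymes that conjugate or export reactive compounds. Tocopherols protect membrane lipids from oxidation, and vte2 leaves are known for callose deposits in the phloem in the cold.

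Values below are log2 values made by RMA (robust multi-array average, a per-probe-set summary after quantile normalization), so a difference of 1 is a 2-fold difference. Levels of different probe sets are not compared, because probes differ in brightness.

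The excursion was large. The 48 h mean stood above the higher of the other 2 means by 2.32 to 6.22 (median 2.90), the rise from 0 h to 48 h had a median of 3.44, and the fall by 120 h a median of -3.06. These values chose the members and are given as a description. Over the members, the median array level was between 4.26 and 5.16 in the 6 arrays at 0 h, and between 7.29 and 8.92 at 48 h. At 120 h it was 4.85 to 5.04 in arrays labelled vte2 and 5.51 to 5.70 in arrays labelled Col. At 0 h, 86 of the 149 members had a mean below 5, where the median over all non-control probe sets was 5.11, and 5 members were above 8.

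**Figure D1:**
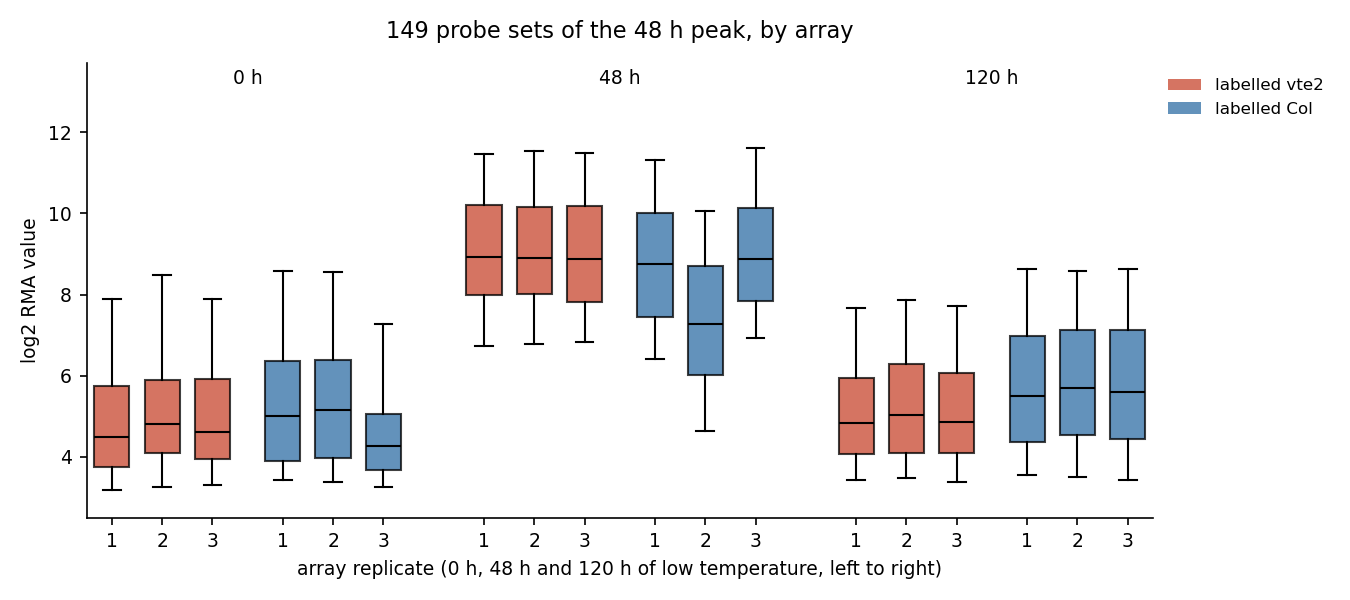
Log2 RMA values of the 149 members on each of the 18 arrays, by time at low temperature, with vte2 arrays left of Col arrays. Boxes span the quartiles, the line is the median and whiskers reach the 5th and 95th percentiles. The 48 h medians sit between 7.29 and 8.92, and Col replicate 2 is the lowest of the 6 arrays at 48 h.

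The return was nearly complete for most members. The members lost a median of 91.6% of their rise by 120 h, with a range of 47.8% to 157%. In 122 members the 120 h mean lay within 1 log2 unit of the 0 h mean, in 25 it was still more than 1 unit above it, and in 2 more than 1 unit below. Those still raised at 120 h included At1g78410, a VQ motif protein of the kind that binds WRKY factors, at 2.03 above its 0 h mean, At4g01870 at 1.79, At5g51830, a sugar kinase of the pfkB type, at 1.60, and the subtilisin-like protease SBT3.3 at 1.58. The 2 more than 1 unit below their starting level were At1g66090, with a Toll/interleukin-1 receptor (TIR) domain and a nucleotide-binding site, at -1.77, and XTH18, a xyloglucan endotransglucosylase/hydrolase of the cell wall, at -1.72.

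At the threshold the score ran on without a step. The last 3 members with a gene name were At1g35210 at 2.37, XTH19 at 2.36 and At5g51830 at 2.32. The first 3 named probe sets outside were At1g10340 at 2.31, SHB1 at 2.31 and At4g18250 at 2.27.

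The 3 highest ranked probe sets have no gene name here. The first of them had means of 4.36 at 0 h, 11.12 at 48 h and 4.90 at 120 h. It is of the type that can match several transcripts. The highest ranked named member was At1g26380, an FAD-linked oxidase of the berberine bridge enzyme-like family. In vte2 its log2 values were 3.60, 4.45 and 4.24 at 0 h, 10.61, 10.49 and 10.02 at 48 h, and 4.85, 5.84 and 4.87 in the arrays so labelled at 120 h. In Col they were 4.37, 4.15 and 3.42 at 0 h, 10.18, 8.43 and 10.08 at 48 h, and 4.44, 4.94 and 4.78 at 120 h. All 6 arrays at 48 h lay far above the other 12, and the lowest of the 6 was Col replicate 2.

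At1g26380 was 1 of 5 members from this oxidase family. Of 27 family genes listed from general knowledge after the values were seen, 22 have a named probe set. At1g26420, At1g30700, At4g20830 and At4g20860 are the other 4 members. Their rises at 48 h ran from 2.88 for At4g20830 to 3.49 for At4g20860. The other 17 did not share the excursion: their change at 48 h was between -1.14 (At2g34810) and 1.37 (At5g44390), and At1g26390, At1g26400 and At1g26410, which lie between At1g26380 and At1g26420 on chromosome 1, changed by 0.11, 0.09 and 0.08. The other pair, At4g20830 and At4g20860, also lie close together, with 3 genes between them on chromosome 4. The means of At1g26390, At1g26400 and At1g26410 lay between 2.93 and 3.64 at 0 h, 48 h and 120 h. Others of the 17, such as At1g30710 and At5g44360, were as low. At such levels a gene that did not respond and a transcript that was not detected cannot be told apart.

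Receptors and kinases formed the largest of the groups by role, and the share of such genes on the whole array was not taken. The roles were assigned from general knowledge after the values were seen, so the groups are given without a test, and 48 of the 76 genes have one. The 9 receptor-like kinases, kinases and receptors rose by 2.68 to 4.47 at 48 h. B120, an S-locus lectin receptor-like kinase, had 3.77, 3.90 and 3.64 at 0 h in vte2, against 3.94, 4.20 and 3.60 in Col. At 48 h it had 9.02, 8.77 and 8.60 in vte2, against 8.08, 6.11 and 8.66 in Col. By 120 h it was at 3.34, 3.66 and 3.43 in arrays labelled vte2, against 3.67, 4.12 and 4.02 in arrays labelled Col. B120 was thus back at its starting level in every array at 120 h.

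At1g51820, a leucine-rich repeat receptor-like kinase, behaved the same way, with 8.04, 8.20 and 7.56 in vte2 and 7.74, 5.92 and 7.78 in Col at 48 h. At both other times its 12 arrays lay between 2.85 and 3.51. The group also held the leucine-rich repeat kinases At1g51890 and At1g74360, the S-locus lectin kinase At1g61360, the kinases At1g51620, At5g46080 and At1g18390, and the glutamate receptor-like channel GLR1.2. The 3 TIR domain proteins, At1g57630, At1g66090 and At2g20142, rose by 2.86 to 4.12. TIR domains are found in intracellular immune receptors of plants. At1g66090 had 7.15, 5.61 and 6.27 in vte2 at 0 h, against 6.90, 7.68 and 6.26 in Col. At 48 h it had 10.15, 10.18 and 9.83 in vte2, against 9.99, 8.19 and 10.33 in Col. At 120 h its 6 arrays lay between 4.66 and 5.01, below every array at 0 h.

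Calcium sensors numbered 4. At3g01830, a calmodulin-like protein, was at 10.40, 10.27 and 10.27 at 48 h in vte2, against 10.42, 8.96 and 10.38 in Col. Its 0 h arrays were widely spread, at 3.68, 5.69 and 6.33 in vte2 against 6.51, 6.70 and 4.26 in Col. The 48 h arrays nevertheless lay above all of these. CML37 had 7.50, 8.02 and 8.06 in vte2 at 48 h, against 7.39, 4.27 and 7.79 in Col, and lay between 3.16 and 4.55 in the 12 arrays of the other times. Col replicate 2 of CML37 thus fell within the range of the 0 h and 120 h arrays. The other sensors beside At3g01830 and CML37 were CML42 and At3g10300, an EF-hand protein, and the 4 rose by 2.43 to 4.59.

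Among the first 12 named members were also 3 small cysteine-rich transmembrane (CYSTM) proteins, At1g05340, At1g56060 and At2g32190, which rose by 4.79 to 5.46. At1g05340 had 10.48, 10.32 and 10.39 in vte2 at 48 h, against 10.24, 8.61 and 10.81 in Col. At1g56060 had 11.47, 11.57 and 11.64 in vte2, against 11.32, 10.05 and 11.77 in Col. The 2 genotypes overlapped at 48 h for both. At3g48640 (mean 10.33 at 48 h), At3g48650 (9.16), the NDR1/HIN1-like protein At1g65690 (8.88), and At4g39670, of the glycolipid transfer protein family (10.61), completed the first 12.

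Cell wall enzymes included XTH18 and XTH19, which cut and rejoin xyloglucan, the pectin methylesterase At2g47550 and the pectin acetylesterase At3g09405. XTH18 had 11.51, 11.63 and 11.29 in vte2 at 48 h, against 10.84, 8.86 and 11.10 in Col. XTH19 had 8.38, 8.31 and 8.07 in vte2 at 48 h, against 7.49, 3.99 and 7.70 in Col. Both genes had their lowest 48 h value in Col replicate 2. XTH18 and XTH19 are adjacent on chromosome 4 and close in sequence, as are the UDP-glycosyltransferases UGT73B4 and UGT73B5 on chromosome 2, so probes could take up signal from both copies. Other XTH genes moved less: XTH20 changed by 0.47 at 48 h (limma, adjusted p = 0.00301), XTH33 by 1.45 (adjusted p = 0.0721) and XTH16 by 0.07 (adjusted p = 0.922). XTH32 went the other way, by -0.97 (limma, adjusted p = 0.000603).

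Detoxification was represented by UGT73B4, UGT73B5, the glutathione transferase family protein At5g44990 and the MATE-type carrier At3g23550, which rose by 2.77 to 3.11. Secreted and defence proteins were SBT3.3, the class III peroxidase Prx37, the lectin At3g16530, At3g22060, the LysM domain protein At5g62150 and the peptide precursor At4g37290. SBT3.3 had 10.19, 10.20 and 10.47 in vte2 at 48 h, against 9.84, 9.57 and 10.35 in Col, and 4.35 to 5.35 in the 6 arrays at 0 h. Prx37 had 6.89, 6.56 and 6.43 in vte2 at 48 h, against 6.80, 7.84 and 6.93 in Col, and 3.15 to 3.37 at 0 h. Both were thus raised in every 48 h array, Col replicate 2 included. Regulators were WRKY6, At1g78410, the RING-type protein At1g63840 and the U-box proteins At5g67340 and At5g61560. WRKY6 stood at 9.27, 9.21 and 9.09 in vte2 and 8.42, 7.30 and 8.70 in Col at 48 h, and its 6 arrays at 0 h lay between 4.99 and 5.28. The vte2 arrays of WRKY6 lay above the Col arrays at 48 h, by 1.05 (limma adjusted p = 0.147) and by 0.63 without Col replicate 2.

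**Figure D2:**
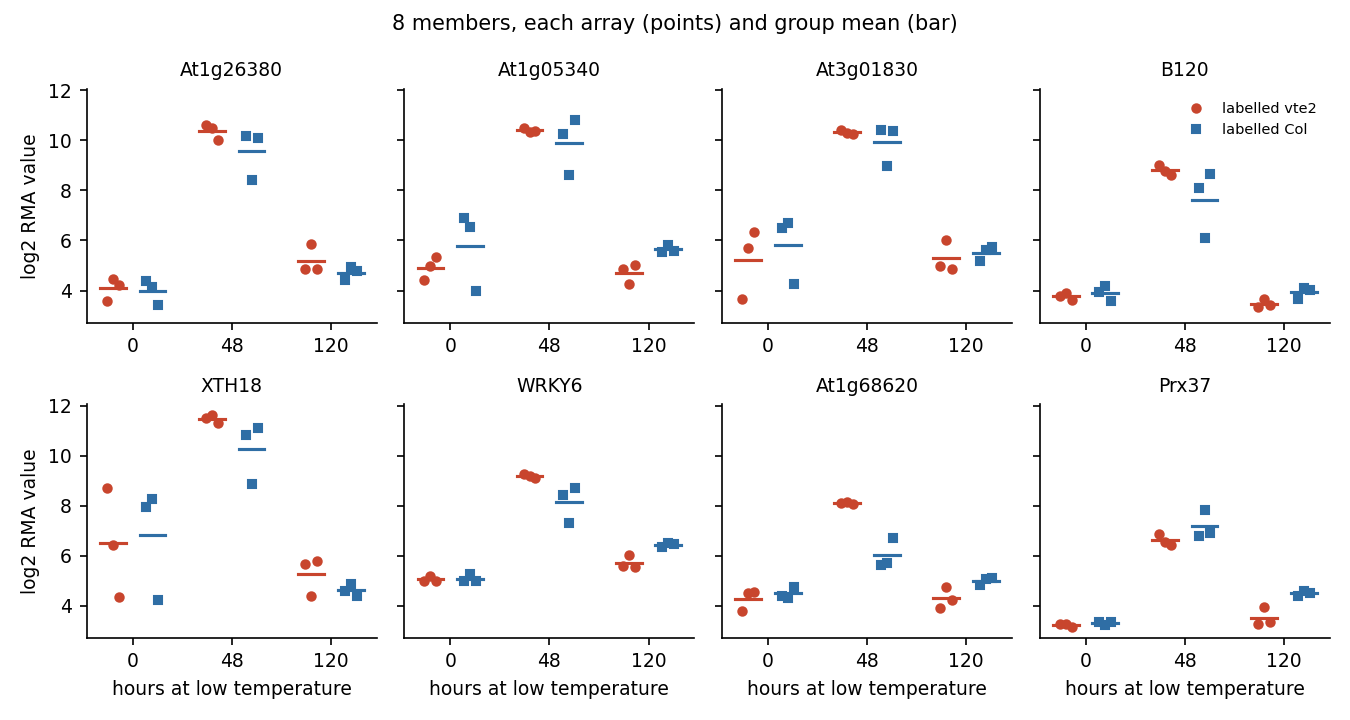
Log2 RMA values of 8 members against hours at low temperature, with each array a point and each bar the mean of 3 arrays, vte2 left of Col. At1g68620 separates the genotypes at 48 h, Col replicate 2 is the low blue square in most panels, and Prx37 has it as the highest.

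Genes of the same families outside the members are given by their own calls. Over all probe sets, 20.8% were called higher and 24.6% lower at 48 h than at 0 h (limma, adjusted p under 0.05), and 17.0% were called higher and 12.7% lower at 120 h than at 48 h. Of 6 other named WRKY factors, 2 rose at 48 h (WRKY53 by 1.10, WRKY47 by 0.84) and 1 fell by 120 h (WRKY22, by -2.33). Of 6 other named calcium sensors, CML41 rose at 48 h by 1.92 and CML23 fell by 0.31. Between 48 h and 120 h, 3 of the 6 fell, CML38 by 3.19, CML41 by 0.91 and CML30 by 0.49, and 1 rose. Of 8 other named peroxidases, 2 rose and 3 fell at 48 h. Of 52 other named glycosyltransferase probe sets, 13 rose and 7 fell at 48 h. For 13 named glutathione transferases the counts were 2 and 4, and for 40 other cell wall enzymes 4 and 11.

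The cold-regulated genes written down as a list contained no member. Of the 6 that could be named of 15, 5 rose at 48 h and 3 fell between 48 h and 120 h. COR15A and COR15B, chloroplast proteins that protect membranes in the cold, were 3.21 and 4.74 higher at 48 h, and changed by -0.31 (adjusted p = 0.793) and -0.52 (adjusted p = 0.558) from 48 h to 120 h in the limma fit. The 3 named genes of flavonoid and anthocyanin synthesis, DFR, UF3GT and A5GT, also rose at 48 h and none was called lower at 120 h. DFR, an enzyme of anthocyanin synthesis, rose by 5.48 and then changed by -0.25 (adjusted p = 0.421). The list of salicylate and pathogen response genes had no named probe set.

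Col replicate 2 stood apart from the other arrays at 48 h. It had a median of 7.29 over the members, against 8.75 and 8.88 in Col replicates 1 and 3. In vte2 the 3 arrays had 8.92, 8.90 and 8.87. For 143 of the 149 members this array was the lowest of the 6 at 48 h, and the share over all probe sets was not taken for that count. It lay below the mean of the other 2 Col arrays by a median of -1.48 and by more than 1 log2 unit for 119 members (79.9%). Over all non-control probe sets, 538 (2.37%) lay that far below and 121 that far above, and the median shift was 0.02. The members made up 22.1% of the 538. The vte2 array numbered 2 differed from the other 2 vte2 arrays by a median of 0.024 over the members, and by more than 1 unit for none of them (range -0.50 to 0.69).

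Measured from the Col mean at 0 h, this array had a median of 61.3% of the rise in the other 2 Col arrays. The shortfall differed between members. XTH19 was at 3.99 in this array, against 7.49 and 7.70 in the other 2 Col arrays, which is below every Col array at 0 h (4.25 to 5.83). CML37 was at 4.27, against 7.39 and 7.79. At the other end, the lectin At3g16530 was at 12.38, against 12.19 and 12.61, and Prx37 was at 7.84, above 6.80 and 6.93. Prx37 was the only member above the mean of the other 2 Col arrays in this array.

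Of the cold genes outside the members, some were level with the other Col arrays in this array and others were lower. COR15A differed from the other Col arrays by 0.00, COR15B by -0.01 and DFR by 0.29. COR27, which rose at 48 h and fell by 120 h, differed by -1.02. COR47, which was 1.32 higher at 48 h (limma adjusted p = 0.0581) and fell by 120 h, differed by -0.90, and the zinc finger factor ZAT10 by -1.59. PDF1.2A, a defensin gene induced by jasmonate, was 2.01 higher. RCA, at 13.06, was near the 12.99 and 12.90 of the other Col arrays. What set this array apart was not tested.

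**Figure D3:**
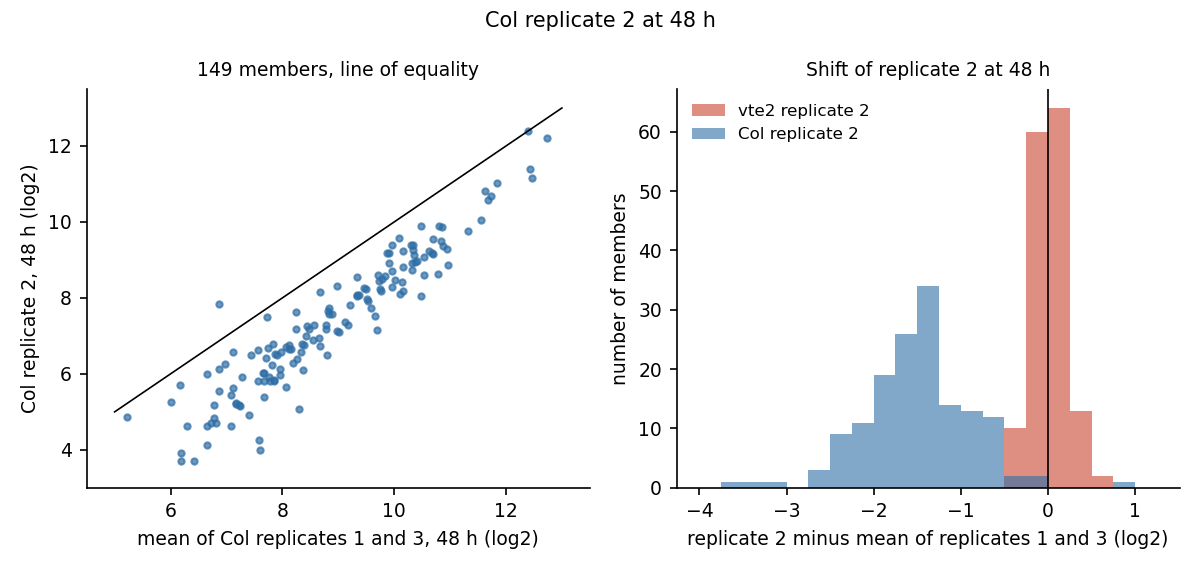
Left, each member's log2 value in Col replicate 2 against the mean of Col replicates 1 and 3 at 48 h, with the line of equality. Right, histogram over the 149 members of replicate 2 minus the mean of replicates 1 and 3, for vte2 (red) and Col (blue). The Col histogram centres near -1.48 and the vte2 histogram near 0.024.

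With this array among 3, the spread of Col at 48 h over the members was the widest of all groups. The median SD over the members was 0.134 in vte2 and 0.88 in Col at 48 h, while over all probe sets it was 0.125 and 0.128. Over all probe sets the groups at 0 h were wider, at 0.235 in vte2 and 0.211 in Col. Without replicate 2 the 2 Col arrays had a median SD of 0.266 over the members. The lowest of the 6 arrays at 48 h was above all 12 arrays of 0 h and 120 h for 135 members, and for 148 when this array was left out. The rule selected on these values, so the counts are a description. Their share over all probe sets was not taken.

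The rule took the mean of both genotypes and did not use their difference, although a member could pass through 1 genotype. Taken alone, the peak was below the lowest score of any member for 3 members in vte2 and for 75 in Col, whose 48 h mean includes replicate 2. Differences within a time point were tested with limma over all 22810 probe sets. At 0 h no member was called higher or lower in vte2 than in Col, with 0.00438% of all probe sets called in each direction. Without adjustment, 5 members (3.36%) had a limma p under 0.05 at 0 h, against 8.54% of all probe sets. The median difference over the members was 0.01, and 76 of 149 were above 0.

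At 48 h, 2 members were called higher in vte2 and none lower, against 0.215% and 0.123% of all probe sets. The named one is At1g68620, a carboxylesterase-type hydrolase. It had 8.11, 8.14 and 8.06 in vte2 at 48 h, against 5.64, 5.71 and 6.71 in Col. The genotypes did not overlap, and the difference was 2.08 ± 0.28 (SE, limma). At 0 h it had 3.79, 4.51 and 4.55 in vte2, against 4.39, 4.33 and 4.76 in Col. Without Col replicate 2 the difference was 1.93. The second called member has no gene name and differed by 1.88 ± 0.24. Taken alone, the peak of At1g68620 was 3.79 in vte2 and 1.01 in Col, and that of the unnamed member 3.88 in vte2 and 1.12 in Col. Both are thus members through vte2, and their differences are given as a description.

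Most members were also higher in vte2 at 48 h, by an amount that depended on 1 array. The median difference over the members was 0.57, against 0.00 over all probe sets, and 135 of 149 were higher in vte2. In 46 members (30.9%) all vte2 arrays lay above all Col arrays, against 7.82% of all probe sets, and in none did they all lie below, against 8.32%. When Col replicate 2 was left out, the median was 0.11 and 95 of 149 were above 0. When Col replicate 3 was left out instead, the median was 0.95 and 18 members were called higher, against 0.495% of all probe sets in that fit. The size of the difference over the members thus moved with Col replicate 2. High vte2 values at 48 h also favoured membership. Taken alone, the peak was below the lowest member score for 75 members in Col and for 3 in vte2. The counts and medians of this paragraph are therefore given as a description.

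**Figure D4:**
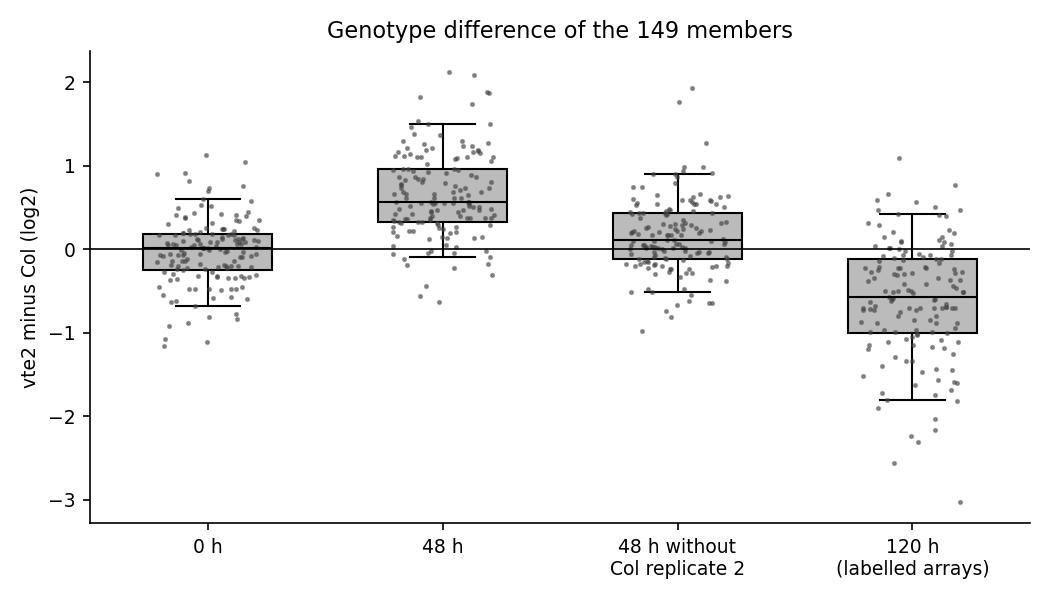
Difference vte2 minus Col in log2 units for the 149 members (points) at 0 h, 48 h, 48 h without Col replicate 2, and 120 h by the deposited labels. Boxes span the quartiles, with the median as a line and whiskers at the 5th and 95th percentiles. Medians are 0.01, 0.57, 0.11 and -0.57.

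At 120 h the difference ran the other way by the deposited labels. Arrays labelled vte2 were lower for 121 of 149 members, with a median of -0.57 against 0.01 over all probe sets. Of the members, 22 were called lower (14.8%) and 1 higher, against 3.09% and 3.44% of all probe sets. With the spread taken from the 6 arrays at 120 h alone, 84 were lower and 6 higher, against 12.6% and 11.3%. All arrays labelled vte2 lay below all arrays labelled Col for 88 members and above for 6, against 18.2% and 18.4%. None of these values involves Col replicate 2 of 48 h, except through the pooled spread. The mean of both labels at 120 h entered the rule, so the counts are given as a description.

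The direction at 120 h is given by the deposited labels and is not taken as settled. Of the 77 probe sets called between the genotypes at 48 h on the whole array, 71 had the opposite sign at 120 h, and of the 51 of these also called at 120 h all were opposite. No probe set was called at both times with the same sign. Whether the labels at 120 h are as intended was not tested.

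The named members with the largest differences at 120 h had come down further in the arrays labelled vte2 than in those labelled Col. At2g41380, a methyltransferase, had 3.51, 3.67 and 3.59 in arrays labelled vte2 at 120 h, against 5.53, 5.80 and 5.54 in arrays labelled Col. The 0 h arrays of both genotypes were between 3.55 and 3.90, so the gene was back at its starting level in the arrays labelled vte2 and more than 2-fold above it in those labelled Col. The difference was -2.03 ± 0.27 (SE, limma adjusted p = 0.000401).

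At1g78410 had 5.12, 6.33 and 4.92 in arrays labelled vte2, against 7.13, 7.43 and 7.25 in arrays labelled Col (-1.81 ± 0.31, limma adjusted p = 0.00226). At5g52760, of a heavy metal-binding domain family, had 6.18, 7.19 and 5.72 in arrays labelled vte2, against 8.39, 8.58 and 8.62 in arrays labelled Col (-2.17 ± 0.47, limma adjusted p = 0.0106). At2g32190 had 3.74, 3.44 and 4.03 in arrays labelled vte2, against 5.91, 6.23 and 5.98 in arrays labelled Col (-2.31 ± 0.63, limma adjusted p = 0.0419). At4g01870 differed by -2.23 (adjusted p = 0.038) and At1g63840 by -1.73 (adjusted p = 0.0313) in the same fit.

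None of the 3 arrays overlapped between the labels in any of these 6. The single member called higher in arrays labelled vte2 was the calcium sensor CML42, with 6.66, 6.80 and 7.01, against 5.70, 5.66 and 5.83 in arrays labelled Col (1.09 ± 0.31, limma adjusted p = 0.0482). Calls for CML42, At4g01870 and At2g32190 were lost whenever any 1 array at 120 h was left out, and that for At1g63840 in 5 of 6 such fits. SBT3.3, named after its values were seen, had 5.75, 5.79 and 5.48 in arrays labelled vte2, against 7.30, 7.61 and 6.86 in arrays labelled Col (-1.59 ± 0.24, limma adjusted p = 0.00113).

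The change of the genotype difference was also fitted in limma. From 0 h to 48 h it was called for 1 member, which is not named, in the direction of a larger vte2 excess at 48 h, and for none in the other, against 0.0482% and 0.00438% of all probe sets. From 48 h to 120 h it was called for 23 members downward and none upward, against 2.59% and 3.32%. This split rests on the labels at 120 h: with them exchanged, no member was called upward or downward, against 0.0921% and 0.0614% of all probe sets, the median over the members was -0.06, and 24 members (16.1%) had an unadjusted limma p under 0.05, against 7.01% of all probe sets. By the deposited labels At2g41380 changed by -3.13 ± 0.38 (SE, limma adjusted p = 0.000224). With the labels exchanged its change was 0.93 (adjusted p = 0.596). At1g68620 changed by -2.78 ± 0.39, or by -1.39 with the labels exchanged, and had 3.93, 4.76 and 4.24 at 120 h in arrays labelled vte2, against 4.83, 5.08 and 5.12 in arrays labelled Col. These values rest on the 48 h arrays, Col replicate 2 included, and on the labels at 120 h. A peak carried mainly by vte2 also gives a downward change. At1g68620 is a member through vte2, and 75 members had a peak in Col alone below the lowest member score. The calls and changes are therefore given as a description.

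At 0 h the replicate 3 arrays stood apart in both genotypes, and this touched the starting level of some members. In 18 members (12.1%) replicate 3 was more than 1 log2 unit below the mean of replicates 1 and 2 in both vte2 and Col, against 3.39% of all non-control probe sets. In 2 members (1.34%) it was that far above in both, against 3.60%. The 0 h mean entered the rule, so a low replicate 3 favoured membership. These shares are given as a description. XTH18 had 8.70, 6.44 and 4.36 in vte2 at 0 h, against 7.93, 8.28 and 4.25 in Col. At3g23550 had 6.83, 10.04 and 4.93 in vte2, against 9.05, 9.20 and 4.99 in Col.

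For At3g23550 the highest 0 h array thus overlapped the 48 h arrays, of which the lowest was at 9.49. At3g51660, At1g52200, At4g20860, At4g20830, At3g10300, At3g22060, At1g19020 and At1g05575 were the other named members low in both. At1g63840 and At1g74360 were high in both. At1g05340 and At3g01830 were low in replicate 3 of Col (-2.72 and -2.34) but not of vte2 (0.62 and 1.64).

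**Figure D5:**
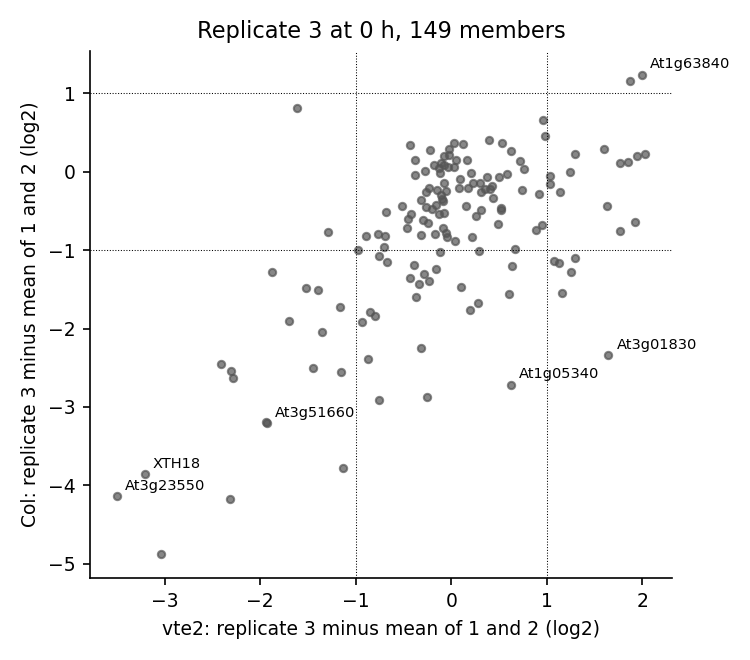
Log2 shift of replicate 3 from the mean of replicates 1 and 2 at 0 h for each member, with vte2 on the horizontal and Col on the vertical axis. Dotted lines mark 1 log2 unit, and 18 members lie in the lower left corner beyond both.

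The choice of arrays changed the membership only in part. Ranking on vte2 arrays alone kept 126 of the 149 members and ranking on Col arrays alone kept 117. Ranking within 1 replicate number kept 132, 125 and 116 for replicates 1, 2 and 3. Without both replicate 3 arrays at 0 h, 139 members were kept.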

How the data were processed

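Log2 expression values of 22810 probe sets on 18 ATH1 arrays were used. They are deposited as log2 values that the authors computed by RMA (affy), which summarises perfect match probes after quantile normalization. That step gives the arrays a common distribution, so a shift of all transcripts would not be seen. Scanner files were not used here, so signal over background is unknown, and the number of arrays limits the precision.

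Groups were taken from the sample labels. limma 3.58.1 in R 4.3.3 was fitted to all probe sets with a mean for each of 6 groups, with Benjamini-Hochberg adjustment (threshold 0.05), and tested on simulated data. Tables were handled with pandas 2.3.3 in Python 3.11.15.

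The members and lists were chosen with earlier results of these data known. Named genes were the 12 highest ranked members, the 6 largest differences each way among called members, the 3 named probe sets on each side of the threshold, and genes of lists and families. Others were named after their values were seen. Gene names came from the platform annotation (13513 probe sets with a single gene, 503 with several, 8794 not listed), updated through RefSeq TAIR10.1. Of the members, 5 are of the type that can match several transcripts and 1 of a less specific type (At2g41730).

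Whether replicate numbers pair vte2 and Col arrays was checked by correlating deviations from group means. Same-numbered pairs gave 0.397 to 0.791 at 0 h, 0.054 to 0.302 at 48 h and -0.151 to 0.0096 at 120 h. The alternatives tried were other sets of arrays, a replicate block, 2 other normalizations, a filter on dim probe sets, array weights, another prior and leaving out arrays. Exchanging the genotype labels at 120 h, leaving out Col replicate 2 at 48 h for the medians, and calls by overlap were chosen after seeing the data.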

Additional observations from a re-analysis of the deposited data

Results flagged for a closer look

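Results are listed here where the genotype difference itself differed between time points. From 0 h to 48 h it changed for 1 member (limma, adjusted p under 0.05), which has no gene name. From 48 h to 120 h it changed for 23 members. By the deposited labels, the changes of the named genes were At2g41380 (-3.13), At1g68620 (-2.78), At1g78410 (-2.59), At5g52760 (-2.50), At5g22530 (-2.20) and At5g62150 (-2.19), all with arrays labelled vte2 lower relative to Col at 120 h than at 48 h. With the labels at 120 h exchanged, an alternative chosen after seeing the data, the changes were 0.93 for At2g41380, -1.39 for At1g68620, 1.03 for At1g78410, 1.84 for At5g52760, 1.06 for At5g22530 and -0.81 for At5g62150, with adjusted p from 0.262 to 0.973, and no member was called. Neither the order nor the common sign held under that exchange. At1g68620 is a member through vte2, and a peak carried mainly by vte2 gives a downward change. The changes of the named genes are therefore given as a description. For At2g41380 the difference was -2.03 at 120 h and 1.10 at 48 h. At5g62150, a LysM domain protein, had 7.64, 8.24 and 8.25 in vte2 at 48 h, against 6.77, 5.14 and 7.73 in Col, and its change lost its call in 10 of 12 fits that each left out 1 array.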

How the results depend on the processing

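Counts of called members moved with the arrays in the fit and with their weights. Of the 2 members called between the genotypes at 48 h, the count was 4 with a replicate block, 1 without the dimmest 40% of probe sets, 19 with array weights, 6 without both replicate 3 arrays at 0 h, and 2 to 18 when 1 array was left out (18 without Col replicate 3 at 48 h). The median difference at 48 h was 0.57, between 0.11 (without Col replicate 2) and 0.95 (without Col replicate 3) when 1 array was left out. At 0 h, where no member was called, 5 were called without both replicate 3 arrays, and 0 to 2 when 1 array was left out (2 without replicate 3 of either genotype). At 120 h the 23 calls became 90 from the 120 h arrays alone, 72 with array weights, 39 without both replicate 3 arrays at 0 h, and 7 to 16 when 1 array was left out, while the median stayed between -0.63 and -0.53. The lowest count, 7, came without vte2 replicate 3, and without Col replicate 1, 2 or 3 and vte2 replicate 1 the counts were 13, 8, 8 and 9.

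The change from 0 h to 48 h, called for 1 member, was called for 0 from the arrays compared or without the dimmest 40%, for 2 with a replicate block, median centring, array weights or the trended prior, for 12 without both replicate 3 arrays at 0 h, and for 0 to 5 when 1 array was left out: 5 and 3 without replicate 3 of Col and vte2 at 0 h, 4 without Col replicate 3 at 48 h, and 0 otherwise. The change from 48 h to 120 h, called for 23, was called for 55 from the arrays compared, 42 with a replicate block, 73 with array weights, 52 without both replicate 3 arrays at 0 h, and 16 to 42 when 1 array was left out (42 without Col replicate 3 at 48 h), and for 0 with the labels at 120 h exchanged, which was chosen after seeing the data. The cause of these shifts was not tested.

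For named genes, 14 differences kept their direction in 234 of 238 repeats and lost their call in 47, among them At5g52760 at 120 h without vte2 replicate 3 (-1.85). The exceptions came with the labels at 120 h exchanged: the change from 48 h was then 1.84 for At5g52760, 1.06 for At5g22530, 1.03 for At1g78410 and 0.93 for At2g41380. In many repeats the direction could not change, because the estimate is the same by construction. These are the fits on the arrays compared, with a replicate block, without the dimmest probe sets, with another prior, and without replicate 3 at 0 h. Between 116 and 148 of the 149 members were kept under the other rankings. Every same-numbered pair correlated above 0.1 at 0 h only. There vte2 replicate 1 with Col replicate 2 (0.462) and vte2 replicate 2 with Col replicate 1 (0.496) correlated as well as the same numbers did (0.397 and 0.482), so only replicate 3 was set apart, and the block is a check. The planned promoter motif counts were not run. Probe sets below the array's background could not be told apart from weak transcripts.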
